A study of Mus musculus with 3 samples.

Results

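The 9 genes described here were Hoxa3, Hoxa5, Hoxa7, Hoxa9, Hoxa10, Hoxb4, Meis1, Pbx2 and Pbx3, homeobox genes of the Hox clusters together with genes of their Meis and Pbx partner proteins. They were found by matching the NCBI gene identifiers of the deposited files to symbols, and they are 9 of the 16742 genes listed in any library. A gene that a library did not list was taken as 0 there. RNA-seq was available for 3 libraries, 1 per condition, and each library pooled 3 C57BL/6 mice whose labelled age was 6 to 8 weeks. The control library was made from bone marrow cells of wild-type mice that had been depleted of cells with mature lineage markers (lin- cells). The TR1 and TR9 libraries held sorted GFP+ bone marrow cells of third-generation TR leukemia mice. TR is TBLR1-RARα, a fusion of a corepressor component with the retinoic acid receptor alpha that occurs in a variant form of acute promyelocytic leukemia (APL). It was delivered by the retrovirus pMSCV-TR-IRES-GFP to lin- cells, which were then passed through serial transplants. The TR1 and TR9 lines descended from primary mouse NO.1 and primary mouse NO.9, so each line stands for 1 primary mouse. Control and TR cells differed in leukemia, in retroviral transduction and serial transplantation, and in the way they were isolated. The effects of these cannot be told apart.

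Hox proteins are transcription factors whose genes sit in clusters and are used in an ordered way along the cluster. In blood formation, genes of the HoxA cluster are active in stem and early progenitor cells and are switched off as the cells mature. Hox proteins bind DNA weakly by themselves and gain affinity and specificity from TALE homeodomain partners, the Pbx and Meis proteins, with which they form complexes. Hoxa9 and Meis1 are known for their joint high expression in acute myeloid leukemias with MLL rearrangement, NPM1 mutation or NUP98 fusion, whereas APL is known for low HOXA expression.

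Expected counts are estimates by RSEM and can be fractional. They totalled 5488778 (control), 5571409 (TR1) and 5129662 (TR9), so that 3 counts stood for 0.547, 0.538 and 0.585 CPM. Each level is given in expected counts and in FPKM, the fragment number scaled for gene length and library total, which can be compared between genes. A gene was called when a conditional exact Poisson test of the counts gave a false discovery rate of at most 0.001 over all genes of the comparison and FPKM differed by at least 2-fold. This test compares the reads of libraries and not the conditions, since no replicate gives the spread between mice. The 95% intervals below cover counting error only. In bulk RNA, fewer cells of a type and less RNA per cell cannot be told apart.

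Of the 9 members, 6 were called lower in TR1 than in control, 6 were called lower in TR9, and 5 (Hoxa3, Hoxa5, Hoxa7, Hoxa9 and Meis1) were called lower in both. With edgeR's exact test, the number called lower was 3 in TR1 at an assumed variation of 0.2 or 0.4, and 3 in TR9 at 0.4. In TR9 at 0.2, the calls of Hoxa5 and Hoxa10 were lost. None was called higher in either TR library. Over all genes tested, 13.0% were called lower and 8.09% higher in TR1, and 10.8% were called lower and 9.37% higher in TR9. All 9 members had at least 10 counts in control, and 6 of them had at most 3 counts, after rounding, in TR1 and also in TR9. These 6 were the HoxA genes and Meis1. Over all genes with at least 10 counts in control, 4.80% had at most 3 counts in both TR libraries. The TR1 and TR9 comparisons share the control library, so they are not independent of each other.

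**Figure D1:**
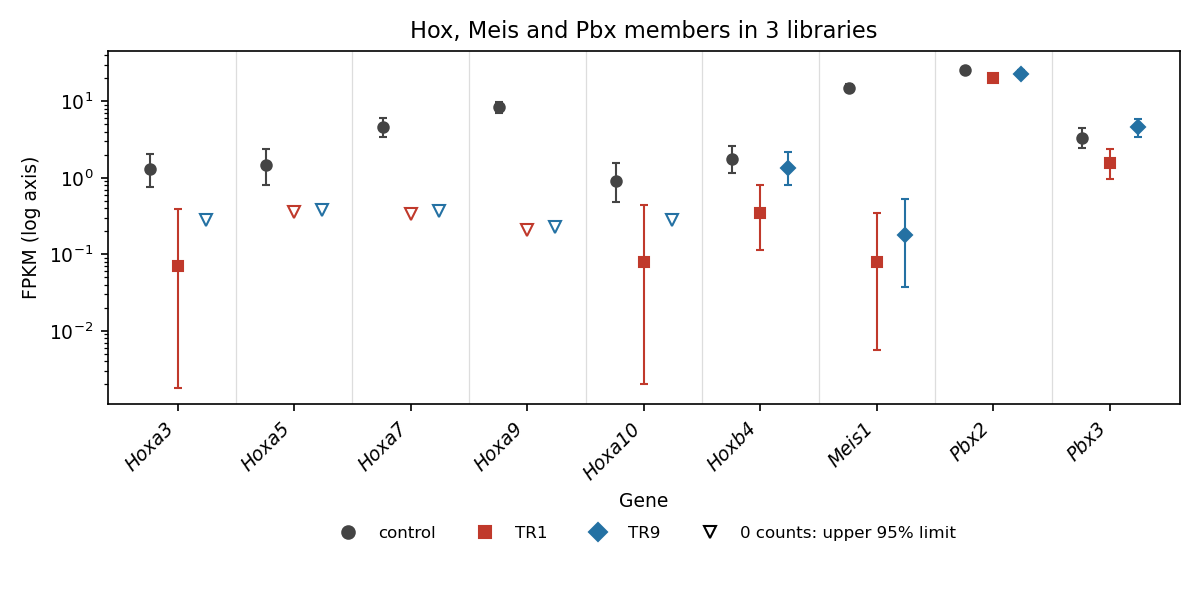
FPKM (log axis) of the 9 members in control, TR1 and TR9, 1 library each. Bars are 95% exact counting intervals, and open triangles mark the upper 95% limit of a library with 0 counts. The HoxA genes and Meis1 lie below control in both TR libraries. The gap is narrow for Hoxa10 in TR1, where the interval reaches 0.446 FPKM and that of control starts at 0.490 FPKM. Hoxb4 and Pbx3 are lowest in TR1, and Pbx2 stays between 19.87 and 25.54 FPKM.

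Hoxa9, a posterior Hox gene that promotes the growth of myeloid progenitors, was the highest HoxA gene of the control library. Control held 144 counts of it (8.35 FPKM, 95% interval 7.04 to 9.83), TR1 held 0 and TR9 held 0. In control, 52.1% of the listed genes had a lower FPKM, so that Hoxa9 was a gene of medium level there. Computed against 3 counts and with the control count taken as exact, TR1 was at least 48.7-fold lower, and TR9 at least 44.9-fold. With counting error in control, the 95% interval of the log2 ratio reached up to −5.29 for TR1 and −5.17 for TR9, which allows smaller folds. The bounds given below for other genes were computed in the same way. The 3 counts correspond to 0.171 FPKM in TR1 and 0.186 FPKM in TR9 and are a chosen bound, not a limit of detection. The upper 95% limits at 0 counts were 0.211 FPKM in TR1 and 0.229 FPKM in TR9. A level under these limits was not excluded at this depth.

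Hoxa7, its neighbour in the cluster and another gene that is active in myeloid progenitors, had 49 counts (4.58 FPKM) in control, while neither TR library held any. TR1 was at least 16.6-fold lower and TR9 at least 15.3-fold. Hoxa5, which takes part in lung and skeletal patterning and in blood cell formation, had 15 counts (1.46 FPKM) in control and again none in TR1 or TR9. Here TR1 was at least 5.08-fold lower (log2 ratio up to −1.86) and TR9 at least 4.67-fold (up to −1.75). Control did not overlap the TR libraries for any of these 3 genes, and the bounds were smaller where control held fewer counts.

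Hoxa3 and Hoxa10 were the HoxA members with a read in TR1. Hoxa3, an anterior gene known for its part in thymus and parathyroid formation, had 18 counts (1.29 FPKM) in control, 1 count (0.07 FPKM) in TR1 and none in TR9. Against control, TR1 was at a log2 ratio of −4.20 (95% interval −9.57 to −1.53). TR9 was at least 5.61-fold lower (log2 ratio up to −2.04). Both differences were called by the Poisson test. Hoxa10, a posterior gene that acts in myeloid progenitors and in the reproductive tract, had 13 counts (0.92 FPKM) in control, 1 count (0.08 FPKM) in TR1 and none in TR9. Its log2 ratio of −3.52 (−9.13 to −0.99) in TR1 was not called. In TR9 it was called, at least 4.05-fold lower (log2 ratio up to −1.51). The length assigned to Hoxa10 was 2581 bases in control and 2177 bases in TR1. With TMM or median of ratios scaling, with 1 FPKM added to both values or with edgeR's exact test, the TR9 call of Hoxa10 was lost. The calls of Hoxa5 in both TR libraries and of Hoxa3 in TR1 were also lost with edgeR's exact test at an assumed variation of 0.2, and that of Hoxa3 in TR9 was lost at 0.4, while those of Hoxa7 and Hoxa9 held under every alternative run.

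Summed over the HoxA members, control held 239 counts, TR1 held 2 and TR9 held 0, which are 16.6, 0.15 and 0 FPKM. Hoxa9 made up 50.3% of the control sum. In the rest of the cluster, counts were lower and were found only in control. Hoxa2, Hoxa4, Hoxa6 and Hoxa13 had 7, 8, 3 and 1 counts in control but none in TR1 or TR9, and Hoxa11 had none in any library. Over the 11 genes of the cluster, 10 had counts in control, 2 had any for TR1 and 0 for TR9. None of the HoxA genes outside the members was called, and their control counts were at most 8.

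The genes of the HoxA cluster lie close together on chromosome 6 and are all read from the minus strand. Antisense and intergenic RNAs are known between them, and the sources used here do not say whether reads were counted by strand. Of 8 such RNAs of the Hox clusters, Hoxa11os was listed with 1 count in control and the others were not listed. Cdx1, Cdx2 and Cdx4, caudal genes known to act upstream of Hox genes, were not listed in any library.

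**Figure D2:**
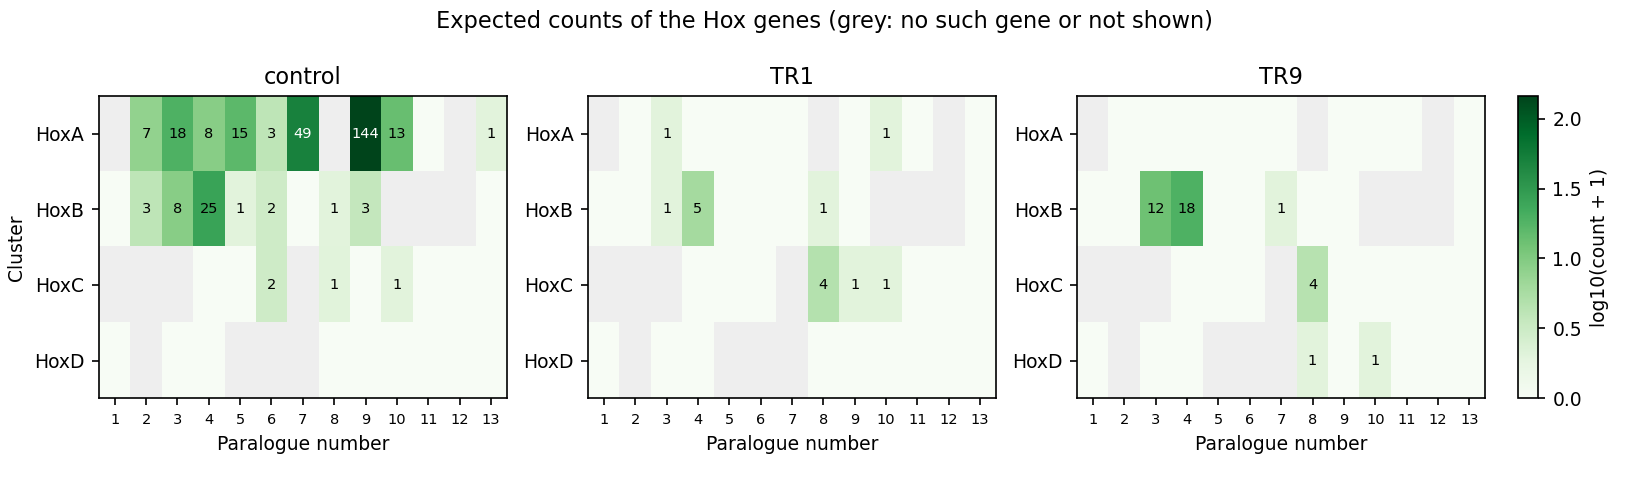
Expected counts of the Hox genes by cluster and paralogue number in each library (grey cells hold no gene or are not shown), coloured by log10(count + 1), with the rounded count printed where it is above 0. The HoxA cluster holds 260, 2 and 0 counts in control, TR1 and TR9, while Hoxb3 and Hoxb4 keep 12 and 18 counts in TR9.

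Across all 4 Hox clusters, control had 306.63 counts over 20 genes, TR1 had 14.71 over 8 genes and TR9 had 36.55 over 6 genes. The HoxA cluster held 260 of the control counts, and the HoxB cluster held 42.61. In the order control, TR1 and TR9, the HoxC cluster held 4.02, 5.68 and 3.55 counts and the HoxD cluster held 0, 0 and 2. Of the 39 Hox genes, 21 were listed in control or TR1, and 5 of these were called lower and 0 higher. For TR9 and control, 23 were listed, of which 5 were called lower and 0 higher. Their median log2 ratio was −4.09 for TR1 and −4.09 for TR9, against −0.29 and −0.12 over all genes tested, each of which includes genes at 0 set to 0.01 FPKM. Over the 10 Hox genes with more than 3 counts in at least 1 of the libraries compared, with genes at 0 set to their bounds, it was −2.72 for TR1 and −1.67 for TR9. Over 3 counts were reached by 9 of the 39 genes in control, by 2 in TR1 and by 3 in TR9.

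The promoters of these genes were also read. Promoters of 8 of the 9 members were found in the RefSeq table of GRCm38.p6, and Pbx3 was not in it. The authors' files give mm9 as the build and hold no coordinates, so these sequences were placed by gene name only. Each sequence below is the 250 bases before the annotated start, written 5′ to 3′ in the direction of the gene, and it was searched on both strands for AGGTCA (the half-site of retinoic acid receptors), TGACAG (a Meis site) and TGATTNAT (a Pbx-Hox site), with matches in capitals. The CCAAT and TATAAA boxes were counted without capitals. Shown are Hoxa9 and Hoxa3 as HoxA genes at or near 0 in both TR libraries. Meis1 is shown as the partner gene that was also near 0 there, and Hoxb4 as the Hox member that kept counts in TR9.
Hoxa9: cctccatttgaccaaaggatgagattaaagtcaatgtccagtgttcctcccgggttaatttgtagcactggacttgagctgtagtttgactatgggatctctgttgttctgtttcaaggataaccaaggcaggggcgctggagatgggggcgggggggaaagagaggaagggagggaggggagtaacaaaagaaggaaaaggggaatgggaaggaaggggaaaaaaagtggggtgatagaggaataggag
Hoxa3: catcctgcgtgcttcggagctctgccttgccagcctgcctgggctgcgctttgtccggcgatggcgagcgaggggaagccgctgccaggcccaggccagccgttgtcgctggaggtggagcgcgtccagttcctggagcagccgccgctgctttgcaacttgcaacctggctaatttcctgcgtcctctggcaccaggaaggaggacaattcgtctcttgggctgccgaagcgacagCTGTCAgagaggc
Meis1: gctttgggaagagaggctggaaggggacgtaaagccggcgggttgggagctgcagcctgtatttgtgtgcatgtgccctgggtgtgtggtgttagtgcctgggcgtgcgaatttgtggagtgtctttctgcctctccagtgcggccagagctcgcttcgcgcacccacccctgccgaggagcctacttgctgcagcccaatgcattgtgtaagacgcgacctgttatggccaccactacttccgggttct
Hoxb4: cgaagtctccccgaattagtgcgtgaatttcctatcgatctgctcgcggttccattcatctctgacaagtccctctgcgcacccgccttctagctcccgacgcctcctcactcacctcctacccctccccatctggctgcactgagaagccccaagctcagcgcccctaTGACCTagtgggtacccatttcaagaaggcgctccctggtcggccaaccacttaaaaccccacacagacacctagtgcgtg

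The Hoxa9 sequence (chr6:52227371-52227620, minus strand) had 49.6% G or C and 3 CG pairs, against medians of 52.4% and 6 over 32851 promoters, and none of the 5 motifs. The Hoxa3 sequence (chr6:52213068-52213317, minus strand) had 64.8% G or C, 18 CG pairs and 1 TGACAG match, seen as CTGTCA on the strand printed. It lies between the windows of Hoxa5 (chr6:52204588-52204837) and Hoxa7 (chr6:52218574-52218823), and no other start of Hoxa3 was read. The Meis1 sequence (chr11:19018970-19019219, minus strand) had 59.6% G or C, 13 CG pairs and a CCAAT box. The Hoxb4 sequence (chr11:96318017-96318266, plus strand) had 58% G or C, 14 CG pairs and 1 AGGTCA match, seen as TGACCT on the strand printed. Over all promoters, AGGTCA was found in 14.0%, TGACAG in 15.9%, TGATTNAT in 2.82%, CCAAT in 33.8% and TATAAA in 12.4%. None of the 5 motifs was found in this window in every HoxA member, and a missing match says only that these letters are not there.

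Hoxb4, a gene known to expand hematopoietic stem cells when it is overexpressed, differed from the HoxA members. Control held 25 counts (1.77 FPKM, 95% interval 1.15 to 2.61), TR1 held 5.03 (0.35 FPKM) and TR9 held 18 (1.36 FPKM). The log2 ratio to control of −2.34 (−4.09 to −0.93) for TR1 was called, and that of −0.38 (−1.34 to 0.56) for TR9 was not. The call in TR1 was lost with TMM scaling (−2.09), with median of ratios scaling (−2.10) and with edgeR's exact test. Between the TR libraries, Hoxb4 was at a log2 ratio of 1.96 (0.48 to 3.75) in TR9 against TR1, which was not called. Hoxb3, its neighbour, held 8, 1 and 12 counts in control, TR1 and TR9, and none of its differences was called. Both genes were thus lowest in TR1, and neither was at 0 in TR9.

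Meis1, a TALE homeodomain partner of Hoxa9 that maintains hematopoietic stem cells, was the member with the largest drop in counts. Control held 283.07 counts (15.07 FPKM, 95% interval 13.4 to 16.9), TR1 held 1.48 (0.08 FPKM) and TR9 held 3.05 (0.18 FPKM). In control, 64.9% of the listed genes had a lower FPKM. The log2 ratio to control was −7.56 (−13.47 to −5.68) for TR1 and −6.39 (−8.75 to −4.90) for TR9, and both were called. RSEM divides reads that match several genes, and the counts of Meis1 were not whole in any library. The control interval does not overlap those of TR1 (up to 0.345 FPKM) and TR9 (up to 0.522 FPKM), whereas the TR1 and TR9 intervals overlap. Its paralogue Meis2 had 6.10, 4.20 and 3.56 counts in control, TR1 and TR9 and was not called in any comparison, and Meis3 had 1 count in control.

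The Pbx members did not follow Meis1. Pbx2, a broadly expressed Pbx gene, was counted 394 times (25.54 FPKM) in control, 312 times (19.87 FPKM) in TR1 and 331 times (22.93 FPKM) in TR9. The log2 ratio to control was −0.36 (−0.58 to −0.14) for TR1 and −0.16 (−0.37 to 0.06) for TR9, and neither was called. A difference of 2-fold lies outside both intervals. Pbx2 was the highest of the 9 members in all 3 libraries, with 73.4% to 77.4% of the listed genes below it.

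Pbx3, a Pbx gene known as a cofactor of Hoxa9 and Meis1 in leukemia, had 44 counts (3.35 FPKM, 95% interval 2.43 to 4.50) in control, 21 (1.57 FPKM, 0.972 to 2.40) in TR1 and 56 (4.55 FPKM, 3.44 to 5.91) in TR9. It was the only member called between the TR libraries, with a log2 ratio of 1.54 (0.79 to 2.33) in TR9 against TR1. Over all genes tested there, 4.34% were called higher and 2.31% lower in TR9. Against control, the log2 ratio of −1.09 (−1.91 to −0.31) in TR1 and that of 0.44 (−0.15 to 1.05) in TR9 were not called. The TR1 interval of FPKM lies below those of control and TR9, which overlap each other. The call between TR9 and TR1 was lost with edgeR's exact test at an assumed variation of 0.2 or 0.4.

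Pbx4, which is not a member, held 38, 35 and 49 counts (5.15, 4.66 and 7.09 FPKM) in control, TR1 and TR9, and none of its differences was called.

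Of the 18 TALE homeodomain genes, 14 were tested in each comparison with control. In TR1, 3 were called lower and 0 higher, and the counts for TR9 were the same. Meis1 and Tgif2 were among those called in both. Tgif2, a TALE repressor of TGF-β responses, had 85, 20 and 23 counts in control, TR1 and TR9. The median log2 ratio of the TALE genes was −0.58 for TR1 and −0.43 for TR9, nearer to the values over all genes than that of the Hox genes.

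**Figure D3:**
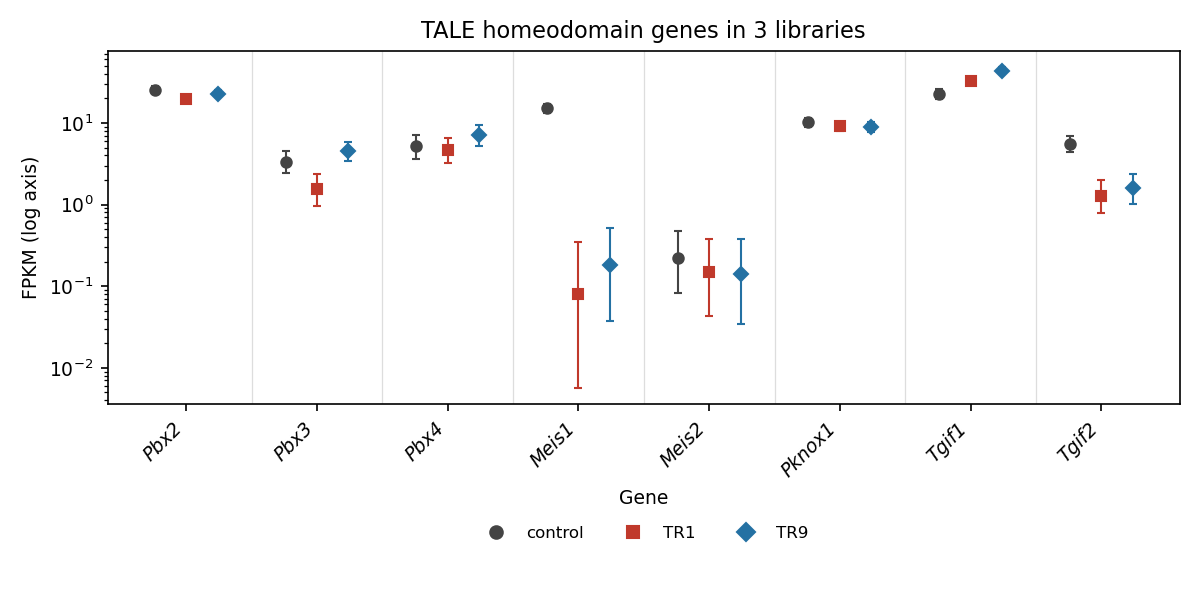
FPKM (log axis) of 8 TALE homeodomain genes in control, TR1 and TR9, 1 library each, with 95% exact counting intervals. Meis1 falls from 15.07 FPKM to 0.08 and 0.18 FPKM and Tgif2 from 5.53 to 1.28 and 1.60 FPKM, while Pbx2, Pbx4 and Pknox1 stay within 2-fold of control.

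Ordered by FPKM in control, the members were Pbx2, Meis1, Hoxa9, Hoxa7, Pbx3, Hoxb4, Hoxa5, Hoxa3 and Hoxa10. The counting intervals of Pbx2, Meis1, Hoxa9 and Hoxa7 did not overlap each other. From Hoxa7 down, each interval overlapped that of the next gene, by the least for Pbx3 and Hoxb4, and differences between these neighbours were not tested. In both TR libraries the order was Pbx2, Pbx3 and Hoxb4, followed by Meis1 and the HoxA genes. Meis1 was at 0.08 FPKM in TR1, equal to Hoxa10, and at 0.18 FPKM in TR9. The HoxA members were at 0 to 0.08 FPKM in TR1 and at 0 in TR9.

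The genes closest to Hoxa9 over the 3 libraries, by the largest difference in log2(FPKM + 0.1), were Ly6g6f, Spon2, Myct1, Rps4l and Uty. They had 48, 104, 124.67, 44 and 256.5 counts in control, and all were at 0 in TR1 and TR9. Those closest to Meis1 were Mylk3, Ddx3y, Mpig6b, Sptb and Pimreg, with 123 to 1133 counts in control, 1 to 3 in TR1 and 2 to 13 in TR9. Uty and Ddx3y are Y-linked, and their reads were nearly confined to control, where Ddx3y had 438.33 counts against 2 and 3.05 in TR1 and TR9. The labels do not give the sex of the mice, and whether the Y-linked difference goes with any member's level was not tested.

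Levels of genes that are linked to Hoxa9 and Meis1 were then examined. MLL (Kmt2a), a histone methyltransferase that keeps HoxA genes active, was not called, with 1614 counts in control, 1284 for TR1 and 1456 for TR9. Of 17 genes of the MLL complex and its elongation partners, 3 were called lower and 0 higher in TR1, and 1 lower and 1 higher in TR9. The shares over all genes tested were 13.0% lower and 8.09% higher in TR1, and 10.8% lower and 9.37% higher in TR9. Mllt3, an elongation partner that reads acylated histones and is active in stem cells, was called lower in both, with 357 counts (11.50 FPKM) in control, 26 (0.75 FPKM) in TR1 and 35.14 (1.10 FPKM) in TR9. The median log2 ratio over the 17 genes was −0.39 for TR1 and −0.22 for TR9, against −0.29 and −0.12 over all genes tested. With TMM or median of ratios scaling the number called lower in TR1 was 1, and with TPM scaling it was 5.

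Genes known as targets of Hoxa9 or Meis1 went in both directions. Of 23 such genes, 9 were called lower and 8 higher in TR1, and 8 lower and 7 higher in TR9, with 7 lower and 7 higher in both. The median log2 ratio was −0.58 for TR1 and −0.14 for TR9, against −0.29 and −0.12 over all genes tested. Trib2, a pseudokinase, had 186, 0 and 2 counts in control, TR1 and TR9. Sox4, a transcription factor of progenitors, had 228, 0 and 6 counts, and Igf1, a growth factor, had 33, 1 and 2 counts. As for Hoxa9, control was far above both TR libraries for these targets.

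Other listed targets were higher in the TR libraries, where Hoxa9 was at 0. Gfi1, a transcriptional repressor needed for neutrophil formation, had 193, 2002 and 2553 counts in control, TR1 and TR9. Id2, an inhibitor of basic helix-loop-helix factors, had 27, 332 and 101 counts. Both were called higher in TR1 and in TR9. Flt3, a receptor tyrosine kinase of progenitors, was called in opposite directions, with 327, 792 and 126 counts in the same order.

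**Figure D4:**
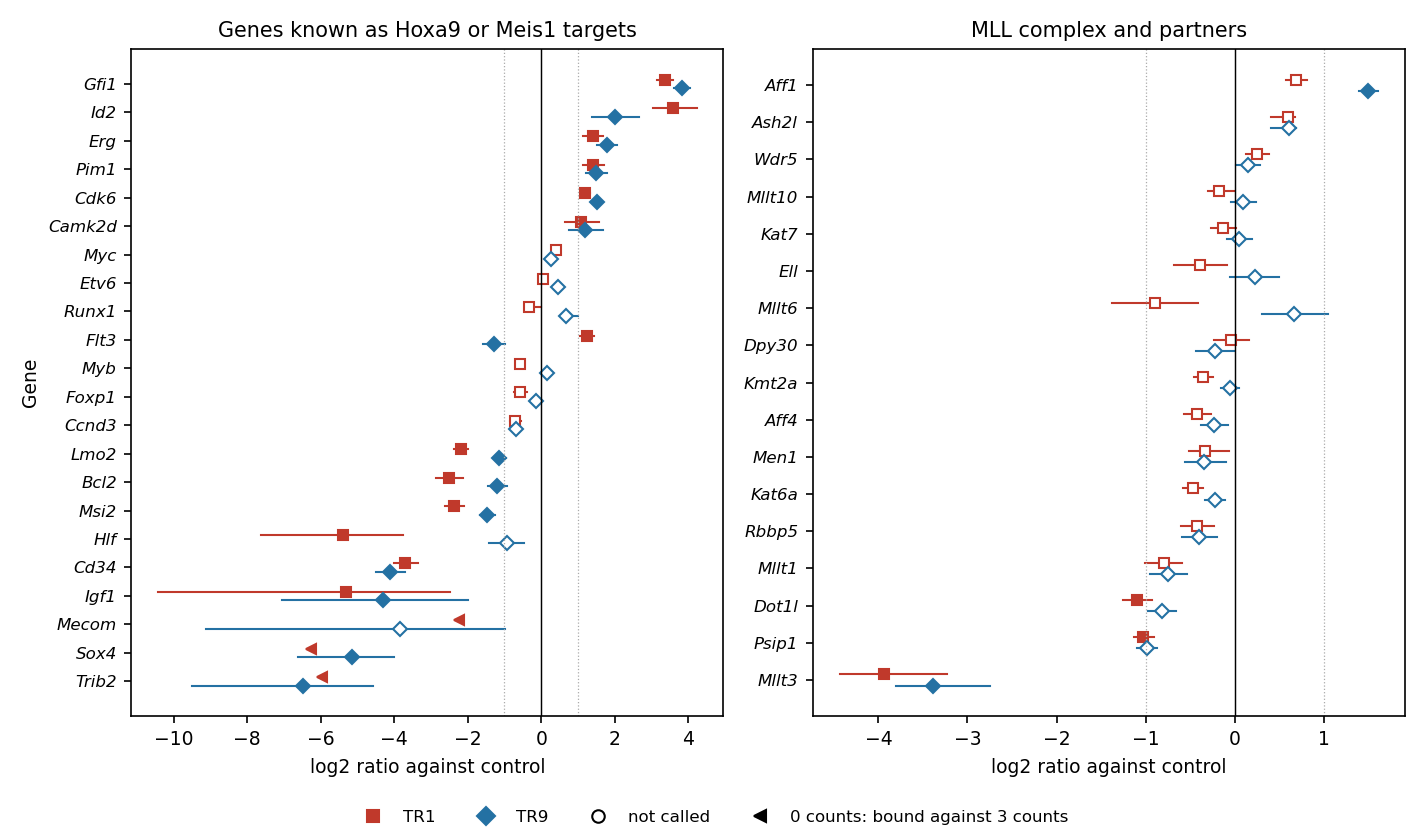
Log2 ratio of FPKM against control for genes known as targets of Hoxa9 or Meis1 (left) and 17 genes of the MLL complex and its partners (right) in TR1 and TR9. Filled symbols were called, bars are 95% intervals from counts alone, which can lie off the symbol where the assigned gene length differed, and left-pointing triangles are bounds for a library with 0 counts. The targets spread to both sides, and in the MLL list Mllt3 stands lowest in both TR libraries.

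Markers were examined beside the labels, since HoxA genes and Meis1 are known to depend on cell stage. Summed FPKM of 11 stem and progenitor markers was 264, 104 and 165 in control, TR1 and TR9, and 9 of the 11 were lower in both TR libraries. Mycn, Slamf1 and Mecom were at 0 in TR1, and Procr, Mycn and Slamf1 in TR9. Kit, the receptor that marks progenitors, had 2115, 853 and 1684 counts in the same order and was called lower in TR1 but not in TR9. Cd34 had 1039, 83 and 57 counts and was called lower in both. Ly6a (9.49, 26.90 and 87.64 FPKM) was called higher in both TR libraries, and Flt3 was called higher in TR1 and lower in TR9. Of the 11 markers, 8 were called lower and 2 higher in TR1, and 6 lower and 1 higher in TR9. The part of progenitor cells in the levels of the HoxA genes and Meis1 was not tested.

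Markers of other cell types also differed between the libraries. In the order control, TR1 and TR9, erythroid markers summed to 1642, 2.37 and 3.36 FPKM, with 7 of 7 lower in both and Alas2 at 0 in both. Megakaryocyte markers summed to 946, 3.65 and 2.55 FPKM, with 7 of 7 lower and Pf4 and Gp6 at 0 in both. Meis1 is also expressed in megakaryocytes, and the part of these cells in its level was not tested. Mast cell and basophil markers summed to 926, 73.7 and 85.8 FPKM with 5 of 5 lower and Fcer1a at 0 in TR1. Marrow stroma markers summed to 743, 9.55 and 11.1 FPKM, with 9 of 10 lower and Lum at 0 in both. Of these 10, 8 were called lower in TR1 and 8 in TR9. Lepr, with 46.04, 103.49 and 30.85 counts, was called higher in TR1. Col3a1, with 34, 33 and 15 counts, was not called in either TR library. Promyelocyte granule markers summed to 4100, 20452 and 23289 FPKM with 4 of 4 higher in both, and late granulocyte markers summed to 84.4, 23078 and 8931 FPKM with 6 of 6 higher. B lineage markers summed to 12.5, 16.7 and 200 FPKM. In this list Cd79a, Cd79b, Pax5 and Rag1 were at 0 in both TR libraries. Pax5 was at 0 in control too, where Cd79a and Rag1 had 8 and 7 counts and Cd79b had 69. Of these, only Cd79b was called lower. Most of the TR sums was Igll1, a surrogate light chain gene, with 0.43, 13.30 and 194.53 FPKM. Vpreb1 had 1, 14 and 20 counts and was called higher in TR9. T and NK markers summed to 98.0, 196 and 157 FPKM, of which Nkg7 held 95.04, 194.22 and 154.81 FPKM. Cd3e and Il2rb were at 0 in TR1 and Cd3g was at 0 in TR9. In control, Cd3e, Cd3g and Il2rb had 2, 2 and 11 counts, and none of them was called. Cd8a had 6, 15 and 23 counts and was not called either. The part of these cell types in the levels of the HoxA genes, Meis1 and the Pbx genes was not tested.

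**Figure D5:**
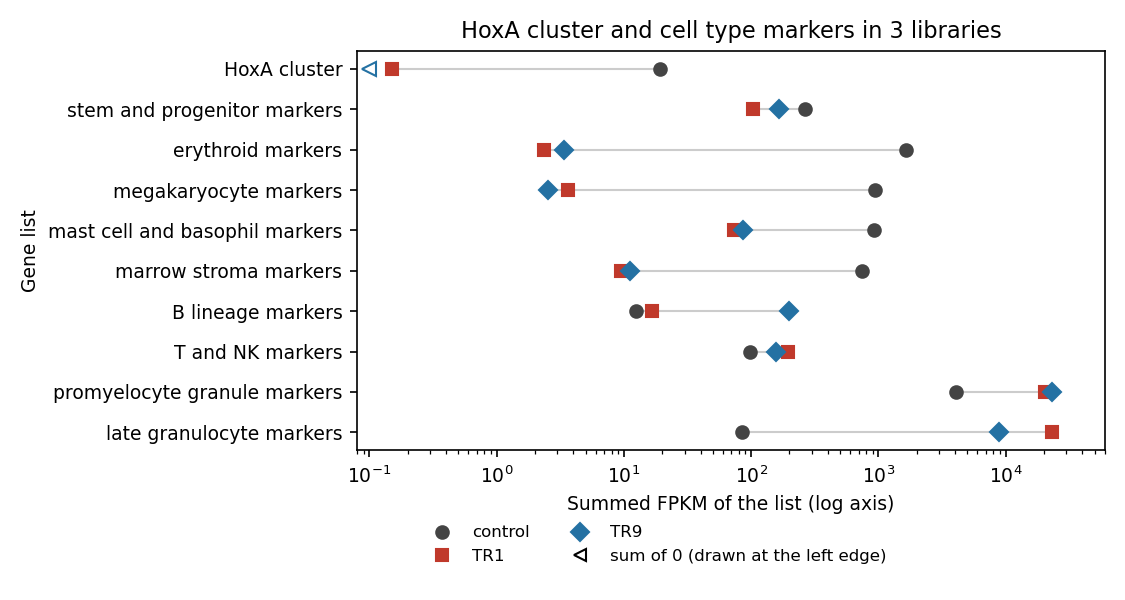
Summed FPKM (log axis) of the 11 HoxA genes and of 9 marker lists in control, TR1 and TR9, 1 library each. The HoxA sum falls from 19.38 to 0.15 and 0 FPKM (the 0 is drawn at the left edge), erythroid, megakaryocyte and stroma sums also fall, and both granulocyte sums rise.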

How the data were processed

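RNA was extracted from pooled cells of 3 mice per library and sequenced, with 1 library per condition. The authors filtered the reads, used BWA and Bowtie for mapping and RSEM for quantification, and deposited per gene the expected count, which is not normalized, and the FPKM, which is scaled for length and library total. Per the submitters' processing notes the build was mm9, and tool versions are not given in the sources used here. Of 16742 gene identifiers, 16698 were matched to symbols. No column held values of other samples.

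After rounding, counts of each pair of libraries entered a two-sided conditional exact Poisson test (scipy 1.17.1), adjusted by the Benjamini-Hochberg method over genes listed in either. FPKM under 0.01 were set to 0.01 before taking log2. Intervals were 95% exact (Clopper-Pearson). Between 19.9% and 21.2% of listed genes had counts that were not whole, which rounding alters slightly. A fold against 0 counts was computed at 3 counts, with the count of the other library taken as exact.

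The members and the gene lists were chosen with earlier results of these data known. Named were all members, Hox genes with at least 10 counts in a library, up to 3 lowest and 3 highest TALE, MLL and target genes called alike in both TR libraries, the most abundant markers and those at 0 (of which the text gives some), and the 5 genes closest to Hoxa9 and to Meis1. Other Hox genes, Kmt2a, Flt3, Meis2, Meis3, Pbx4, Ly6a, Igll1, Lepr, Col3a1, Vpreb1 and Cd8a were chosen once their values had been seen. Alternatives were TMM, median of ratios and TPM scaling, a pseudocount of 1 FPKM, count ratios with 0.5 added, a minimum of 10 counts, edgeR's exact test (edgeR 4.0.16, R 4.3.3) at a coefficient of variation assumed to be 0.2 or 0.4, a false discovery rate of 0.05, and a 2-fold threshold raised to a log2 ratio of 2. Some genes that this rule or the lists took are not reported here. The Poisson test and its intervals were tried on simulated Poisson counts, which held no spread between mice and so cannot speak to it. Changes were put only into genes with higher expected counts than Hoxa3, Hoxa5 and Hoxa10 had.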

Additional observations from a re-analysis of the deposited data

Results flagged for a closer look

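Pbx3 was the member that differed between the TR lines. Its log2 ratio was 1.54 in TR9 against TR1 by the Poisson test of the reads, from 21 counts in TR1 and 56 in TR9, with 44 in control. No replicate of either line was available, and the difference was not called with edgeR's exact test at an assumed variation of 0.2.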

How the results depend on the processing

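No paired analysis was possible because each condition had 1 library, and for the same reason no library could be left out. Of 261 values of single members under alternatives, 239 kept their direction and call, 19 lost the call, 3 gained it and 0 changed sign. Of 402 counts and medians, 336 held. Here a count that changed by up to 1.5-fold was taken as held, so it need not be unchanged. For example, the number of members lower in TR1 was 6, and it was 5 with TMM scaling. Medians that shifted by a small amount were likewise taken as held. Meis1, Hoxa7 and Hoxa9 were called lower in both TR libraries under every alternative run. Scaling moved the log2 ratios of members with reads in both libraries compared. The shift in TR1 was 0.25 (TMM), 0.24 (median of ratios) and −0.23 (TPM). In TR9 it was 0.11, 0.08 and −0.11, and in TR9 against TR1 it was −0.13, −0.12 and 0.12. Members without reads in a TR library, such as Hoxa5, Hoxa7 and Hoxa9, kept the same ratio to control there under each scaling. Their FPKM was set to a fixed minimum, so for them scaling could change only the call. The Poisson p summed over outcomes by likelihood was chosen after seeing the data. The limits are 1 library per condition, low counts and 2 ways of isolating cells. Further limits are transduction and transplantation of the TR cells only, and Y-linked reads that were nearly confined to control. With 18 counts or fewer in control a call rests on few reads. The cause of the changes below was not tested.

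With edgeR's exact test at an assumed variation of 0.2 or 0.4, the number of members called lower in TR1 was 3 and 3. In TR9 it was 3 at 0.4, and at 0.2 the calls of Hoxa5 and Hoxa10 were lost. The numbers at 0.2 and 0.4 in TR1 were 2 and 2 Hox genes, 1 and 1 TALE genes and 1 and 0 MLL genes lower, 3 targets lower at 0.4, and 3 and 1 targets higher. In TR9 they were 3 and 2 Hox genes lower, 1 TALE gene lower at 0.4, 0 MLL genes lower at 0.4 and 0 and 0 higher, 4 and 3 targets lower and 3 and 1 higher. For TR9 against TR1 they were 0 members, 0 TALE genes in each direction, 0 MLL genes higher, 1 and 0 targets lower and 2 and 0 higher.

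At an absolute log2 ratio of at least 2, TR1 had 1 MLL gene lower and 3 targets higher, TR9 had 0 MLL genes higher and 4 targets lower and 3 higher, and TR9 against TR1 had 0 members, 0 TALE genes in each direction, 0 MLL genes, 1 target lower and 2 higher. At a false discovery rate of 0.05, 8 Hox genes were lower in TR1, and in TR9 against TR1 2 members and 2 Hox genes were higher, where Hoxb4 gained a call.

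With TMM and with median of ratios scaling, 1 MLL gene was lower in TR1, 1 TALE gene was higher in TR9 and 3 targets were higher in TR9 against TR1. TPM scaling gave 5 MLL genes lower in TR1 and 2 in TR9. With 1 FPKM added, 3 targets were higher in TR9 against TR1. The median log2 ratio of the Hox genes was −0.42 in TR1 and −0.23 in TR9 with 1 FPKM added, −2.52 and −2.22 as count ratios with 0.5 added, and −5.70 and −7.01 over genes with at least 10 counts. For TR9 against TR1 it was 0.05, and it was −0.082 with TMM, −0.069 with median of ratios and 2.88 over genes with at least 10 counts.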
